A study of Mus musculus with 61 samples.

Results

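Fermt3, D630023F18Rik, Ifitm10, S100a16 and Prickle3 are 5 of the 23927 gene rows measured in single cells of the neonatal mouse ovary, chosen because their counts were near absent in control oocytes and high in oocytes after doxorubicin. That choice used measured values, so their difference between the oocyte groups is given here as a description. The mice were wild-type CD-1 animals, an outbred stock, whose cells were taken at postnatal day 5. Solvent for the controls and doxorubicin for the treated group were injected intraperitoneally 6 hours earlier. The labelled dose, 10 mg/kb, has an uncertain unit. The 61 libraries were 16 control oocytes, 16 doxorubicin oocytes, 16 control granulosa cells and 13 doxorubicin granulosa cells, each made from 1 cell. The labels tie no cell to an animal. Each group therefore counted as 1 sample, no difference was tested, and the 95% intervals below cover counting error only.

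Doxorubicin is an anti-cancer drug that intercalates into DNA and traps topoisomerase II on it, which leaves strand breaks. In oocytes of the neonatal ovary such breaks activate TAp63, a relative of p53, and both proteins bind the same DNA element and share many target genes. Cdkn1a, which encodes the cell cycle inhibitor p21, and Mdm2, which encodes the ubiquitin ligase of p53, are textbook members of that target set. Granulosa cells are the somatic cells that enclose the oocyte in its follicle.

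The 5 genes lie on 5 chromosomes and are all annotated as protein coding. Fermt3 (19:6998958-7019469, minus strand) encodes kindlin-3, which binds integrin tails from inside the cell, helps integrins to engage their ligands, and is best known from blood cells. Ifitm10 (7:142325837-142373753, minus strand) belongs to the interferon-induced transmembrane protein family. S100a16 (3:90537254-90543151, plus strand) encodes a small EF-hand protein that binds calcium. Prickle3 (X:7657260-7668186, plus strand) encodes a LIM-domain protein of the family that sets planar cell polarity. D630023F18Rik (1:65105285-65123214, minus strand) carries a RIKEN clone name. Positions are from GENCODE M21 on GRCm38, the assembly that mm10 denotes.

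Because Cdkn1a is the reference gene for the cell-to-cell comparison, the start sites of the 5 genes were searched for the p53 response element and for common promoter motifs. RefSeq start windows on GRCm38.p6, of 250 bases before and 50 bases after each start, were available for all 5 genes and for Cdkn1a. The response element was counted as a pair of decamers on either strand, at most 13 bases apart, with at most 2 mismatches to the consensus in all and with the central C and G of each decamer kept. Such a match was present in 4.085% of 32851 windows. It was found at D630023F18Rik and Prickle3, was not found in the windows of Fermt3, Ifitm10 and S100a16, and had no mismatch at the upstream start of Cdkn1a, a fit reached by 0.07306% of windows. The matches are shown with the decamers in capitals. They lie at 1:65123324-65123345, X:7657343-7657371 and 17:29090906-29090937.
D630023F18Rik: GCACAAGGTTcaGGGCTAGCCT
Prickle3: AAGCGTGCTCctcccactaAGTCAAGTTT
Cdkn1a: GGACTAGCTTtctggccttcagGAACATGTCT
The D630023F18Rik match lay on the minus strand and began 131 bases before the start site, and the Prickle3 match began 36 bases before it on the plus strand. These matches are letters in a window and do not show binding.

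The AP-1 motif TGANTCA, read on both strands, was present in 7.808% of windows. It occurred once before the inner start sites of Ifitm10 and once before the inner start site of S100a16, and in no window of the other 3 genes. Both sites are shown with the motif in capitals, at 7:142372350-142372376 (minus strand) and 3:90540944-90540970 (plus strand).
Ifitm10: gacgccgccgTGAGTCAggctctggct
S100a16: accaccttttTGAATCAgatggtgtgt
Fermt3 had neither match. The 250 bases before its start, 19:7019470-7019719 on the minus strand, are shown because Fermt3 stood above the controls in more doxorubicin oocytes than the other 4 genes. They also held no GC box (GGGCGG, in 35.66% of windows), no CCAAT box (CCAAT, in 37.41%) and no TATA box (TATAAA, in 13.62%), on either strand.
Fermt3: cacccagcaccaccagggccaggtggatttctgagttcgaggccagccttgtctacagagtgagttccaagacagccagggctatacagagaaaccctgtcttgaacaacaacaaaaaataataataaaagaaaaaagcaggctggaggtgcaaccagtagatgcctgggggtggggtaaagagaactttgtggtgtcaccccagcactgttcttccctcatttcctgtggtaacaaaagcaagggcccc

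Total counts per library ranged from 6834594 to 31262609, and the deepest was control oocyte 16. Levels are given as CPM, counts scaled to a common total over all gene rows of that library or, for a group, of its summed libraries. The labels were checked against marker genes. Summed over 15 oocyte markers, the median CPM was 24886 for control and 19004 for doxorubicin oocytes, against 897 for control and 4475 for doxorubicin granulosa libraries. The 18 granulosa markers had medians of 85.5, 103, 5598 and 4199 CPM in the same order. Endothelial markers, 7 genes, summed to a median CPM of 0.66 over control oocytes and 25.3 over treated ones, at most 135 in cell 3, and their part in the oocyte differences was not tested. Oocyte transcripts exceeded granulosa transcripts in 6 of the 13 doxorubicin granulosa libraries and 4 of the 16 control ones. Those sums went against the labels, narrowly in doxorubicin library 9 at 4475 and 4434 CPM. The group ratios of the 5 genes are given below with and without these libraries. Stroma markers had a median of 815 CPM in control and 688 CPM in treated granulosa libraries. They stood at 8342 CPM in control library 2, which was left out. They also stood at 4384 CPM in control library 16 and 7961 CPM in doxorubicin library 13, which were kept. The kept libraries were therefore not free of stroma transcripts. Among doxorubicin oocytes, numbers 9, 11 and 12 held over 2000 CPM of granulosa markers, against at most 961 in any control oocyte.

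Across the oocytes the 5 genes shared a wide spread in the treated cells, from at or near 0 to far above every control. Fermt3 and D630023F18Rik were at or near 0 in most control oocytes, while Ifitm10, S100a16 and Prickle3 were low but detected at 5 reads in most of them. All 5 exceeded an 8-fold difference in group CPM, which 1.39% of 11119 genes did among those that reached 5 CPM in an oocyte group, but the genes were picked on this contrast and nothing is read from that count. Fermt3, D630023F18Rik and S100a16 passed the 5 CPM minimum only through the doxorubicin group.

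**Figure D1:**
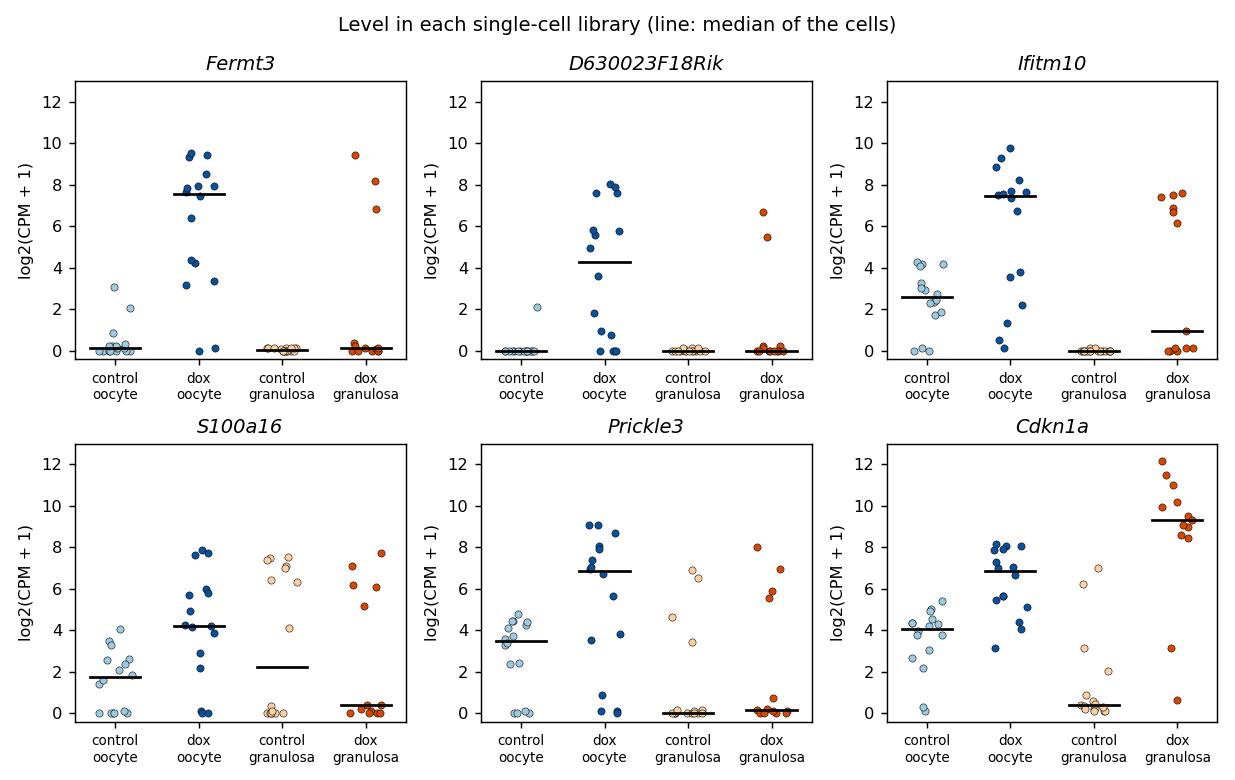
Level of each of the 5 genes and of Cdkn1a in every library, as log2(CPM + 1) on the vertical axis, in the 4 groups; a point is 1 cell and the line is the median of the cells. Doxorubicin oocytes run from 0 or near 0 to a highest level of 751 CPM for Fermt3 and 861 CPM for Ifitm10, while S100a16 and Prickle3 are also present in some control granulosa libraries.

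Fermt3, the kindlin, had a lowest, median and highest level of 0, 0.097 and 7.29 CPM over the 16 control oocytes. Over the 16 doxorubicin oocytes these were 0, 186 and 751 CPM. The groups overlapped in 2 treated cells, and the other 14 lay above the highest control. Group CPM was 1.47 and 242, a log2 ratio of 7.37 (7.20 to 7.54). The highest control was control oocyte 16, and without it the ratio was 9.40. Any count of at least 5 reads was seen in 3 control and 14 doxorubicin oocytes.

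D630023F18Rik came closest to an absent start. Its 34 control reads all fell in control oocyte 9, at 3.29 CPM, and the other 15 control oocytes had none. Doxorubicin oocytes ranged from 0 through a median of 20.7 to 260 CPM, with 4 cells at 0 and 9 of 16 above the control maximum. Group CPM of 72.1 over 0.174 made 8.70 (8.21 to 9.23) on the log2 scale, and 12.12 without control oocyte 9, which leaves no control read and sets that group to 3 counts. The size of this ratio therefore rested on 1 control cell.

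Ifitm10 was not silent in the controls. It reached at least 5 reads in 13 of 16 control oocytes, at 0, 5.06 and 18.3 CPM for the lowest, median and highest cell. In doxorubicin oocytes these levels were 0.093, 172 and 861 CPM, with 10 cells above the control maximum and the rest inside the control range. Group CPM was 6.65 and 220, for a log2 ratio of 5.05 (4.97 to 5.13).

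S100a16, the calcium-binding protein gene, was detected in 10 control and 13 doxorubicin oocytes at 5 reads or more. Its control levels were 0, 2.34 and 15.7 CPM, and its doxorubicin levels were 0, 17.8 and 231 CPM, again lowest, median and highest. The control maximum was exceeded in 10 cells, some of them narrowly, and the median treated cell lay just above it. The log2 ratio was 4.18 (4.07 to 4.30).

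Prickle3, the planar polarity gene, reached 5 reads in 12 control and 13 doxorubicin oocytes. Its control oocytes spanned 0, 10.3 and 27.0 CPM and its doxorubicin oocytes 0, 114 and 544 CPM, with 10 of 16 above the control maximum. The ratio of group CPM, 172 over 12.4, was 3.79 (3.73 to 3.85) on the log2 scale. Cdkn1a, measured beside them, went from 15.7 to 130 CPM, a log2 ratio of 3.06, with 12 of 16 treated cells above the highest control. In the 12 control and 11 doxorubicin oocytes under 200 CPM of granulosa markers, the log2 ratios were 6.80 for Fermt3, 11.45 for D630023F18Rik with the control sum set to 3 counts, 4.92 for Ifitm10, 4.55 for S100a16, 3.43 for Prickle3 and 2.33 for Cdkn1a. Each of the 5 genes thus stayed past 8-fold there. A share of 0.648% of the 11119 genes had at least 10 of 16 treated oocytes above every control.

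Only 3 other genes than these 5 met the same pattern, defined as at least 8-fold higher, 50 CPM or more after the drug, and 5 reads or more in no fewer than 75% of doxorubicin oocytes. They were Pisd-ps1, a pseudogene of the mitochondrial phosphatidylserine decarboxylase, at a log2 ratio of 5.26, Plk2, a polo-like kinase, at 4.01, and Cdkn1a itself. Just inside the 8-fold limit stood Cdkn1a at 3.06, and just outside it 9930012K11Rik at 2.84 and Wnt4 at 2.68. Of the 154 genes past 8-fold, 138 stayed under 50 CPM, and 146 failed the level or the share of cells. Fermt1, a paralog of Fermt3, missed only the share. It had 60.1 CPM and 5 reads or more in 11 of 16 doxorubicin oocytes, 68.75%, while D630023F18Rik met the limit at 75%. The list therefore depends on where these limits were set. Pisd-ps1 has a near-identical parent gene, so its reads could have been split by the counting.

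The treated oocytes differed widely from each other, and did so in step across the 5 genes. In 8 cells, numbers 1, 3, 4, 5, 7, 9, 10 and 11, all 5 genes were above their control maximum. In cells 6 and 13 there were 4, in cell 12 there were 2, in cells 2, 14 and 16 there was 1, and in cells 8 and 15 there were none. No cell had 3. Cells 3, 4 and 5 carried the 3 highest levels of every gene but D630023F18Rik, for which cell 10 came second at 239 CPM. Cell 4, whose raw reads the series text reports as lost, had 751 CPM of Fermt3, 260 of D630023F18Rik, 861 of Ifitm10, 209 of S100a16 and 544 of Prickle3. Cell 15 had 0, 2.51, 0.093, 0 and 0.84 CPM of the same genes, at the level of a control oocyte.

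**Figure D2:**
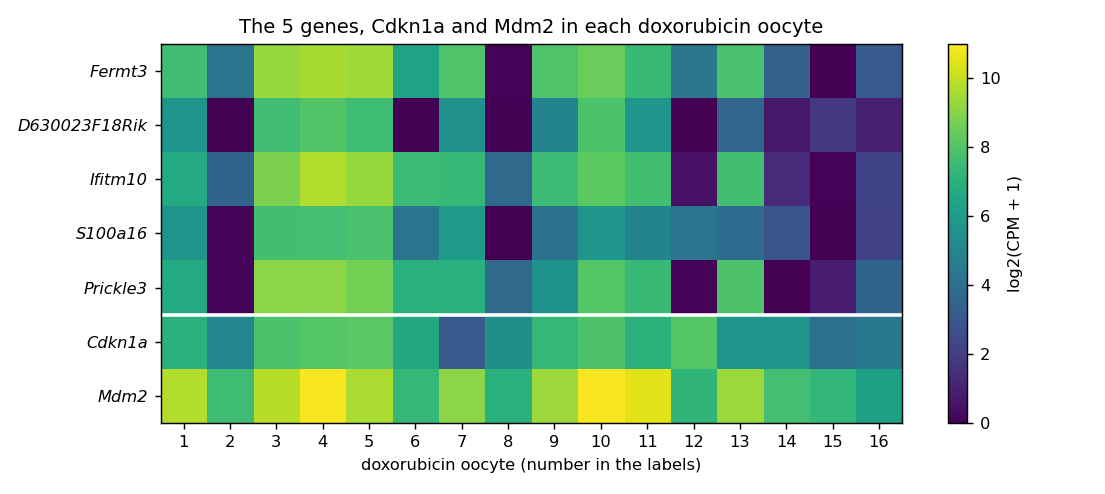
The 5 genes, Cdkn1a and Mdm2 (rows) in each of the 16 doxorubicin oocytes (columns, by the number in the labels), coloured by log2(CPM + 1). The 5 genes are high together in cells 1, 3, 4, 5, 7, 9, 10 and 11 and low together in cells 8 and 15, and Mdm2 follows them more closely than Cdkn1a does in cells 7 and 12.

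Rank correlations described this. Across the 16 doxorubicin oocytes, the 10 pairs among the 5 genes had Spearman rho between 0.76 and 0.94, with a median of 0.82. The closest pair was Ifitm10 and Prickle3. The cells may share animals, all carry the same batch label, and the genes were chosen for being high in some of these cells, so no p is given. The mean log2 level of the 5 genes had a rho of 0.51 with the number of genes detected in the cell and of 0.33 with its total counts. With marker sums rho was 0.24 for oocyte, 0.21 for granulosa, 0.19 for blood and immune and -0.27 for stroma markers. The part of detection depth in the shared pattern was not tested.

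With Cdkn1a the relation was looser. Spearman rho with Cdkn1a was 0.67 for S100a16, 0.66 for Fermt3, 0.59 for Ifitm10, 0.49 for Prickle3 and 0.48 for D630023F18Rik. All 5 were at 0.4 or more, which 7.86% of 7305 genes reached, but those genes were not limited to genes raised by the drug. Ranked by likeness to each gene among those 7305, Cdkn1a took place 126 for S100a16, 192 for Fermt3, 274 for Ifitm10, 494 for Prickle3 and 521 for D630023F18Rik. In doxorubicin oocytes, Cdkn1a had a rho of 0.50 with granulosa, 0.44 with blood and immune, 0.25 with stroma and -0.07 with oocyte markers. The part of RNA from other cells in the looser relation was not tested. In control oocytes, where most values are near 0, rho between Cdkn1a and the mean of the 5 genes was -0.29.

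A pair of cells stood apart from this relation. Doxorubicin oocyte 7 had 7.90 CPM of Cdkn1a, the lowest of the treated oocytes, yet 248 CPM of Fermt3, 163 of Ifitm10, 130 of Prickle3, 63.3 of S100a16 and 46.1 of D630023F18Rik. Doxorubicin oocyte 12 had 269 CPM of Cdkn1a, the second highest, with 0.45 CPM of Ifitm10, 0.090 of Prickle3 and none of D630023F18Rik, while Fermt3 at 19.9 and S100a16 at 17.97 CPM were above their control maximum. Cell 12 also held 2027 CPM of granulosa markers and 1468 CPM of stroma markers, and their part in its Cdkn1a level was not tested. Without cell 7, rho with Cdkn1a was 0.89 for S100a16 and 0.80 for Fermt3, and without cell 12 it was 0.83 for Ifitm10. Without cell 5, which is high for all, the values were 0.60, 0.59 and 0.50 for S100a16, Fermt3 and Ifitm10.

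**Figure D3:**
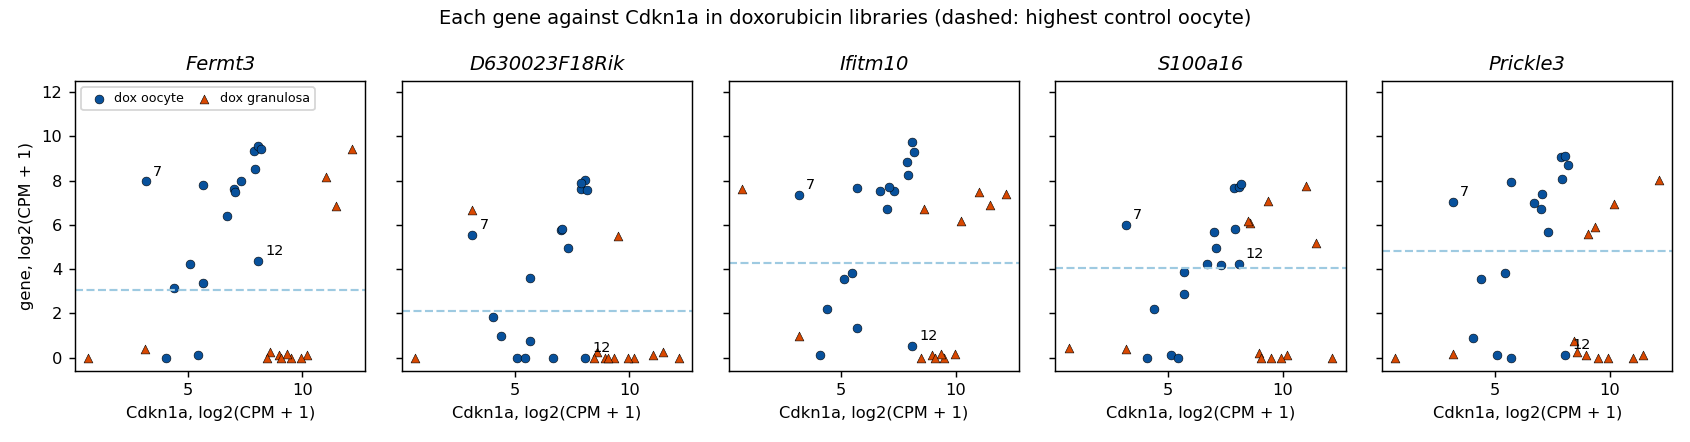
Each of the 5 genes (vertical, log2(CPM + 1)) against Cdkn1a (horizontal, log2(CPM + 1)) in doxorubicin oocytes (circles) and doxorubicin granulosa libraries (triangles); the dashed line is the highest control oocyte. Oocyte 7 sits high for every gene at a Cdkn1a level of 7.90 CPM, oocyte 12 sits low for Ifitm10, Prickle3 and D630023F18Rik at 269 CPM, and granulosa libraries with high Cdkn1a lie both near 0 and far above it.

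Mdm2 tracked the 5 genes cell by cell more closely. It ranged from 111 to 207 CPM in control oocytes and from 75.2 to 1898 CPM in doxorubicin oocytes. The 9 treated cells above the control range for Mdm2 were cells 1, 3, 4, 5, 7, 9, 10, 11 and 13, and in each of them at least 4 of the 5 genes were above their own control maximum. Cell 6, at 161 CPM of Mdm2, was the exception on the other side. Of the 12 cells above the control range for Cdkn1a, 9 had at least 4 of the genes above theirs, and cells 8, 12 and 14 did not. In cell 7 Mdm2 stood at 540 CPM and in cell 12 at 145 CPM. Spearman rho with Mdm2 was 0.89 for D630023F18Rik, 0.82 for Fermt3, 0.81 for Ifitm10, 0.75 for Prickle3 and 0.74 for S100a16. The difference between these values and those for Cdkn1a was not tested.

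The wider list of p53-family targets was ranked in the same way. Of its 40 genes, 21 had at least 20 CPM in doxorubicin oocytes and at least 5 reads in enough cells to be ranked. Their median rho with the mean of the 5 genes was 0.55, against -0.07 over 7301 genes, and 14 of the 21 were at 0.4 or more, against 11.7% of all genes. The 5 genes were chosen for being high in treated oocytes, and the 7301 genes were not limited to genes raised by the drug. Genes raised in the same cells would rank alike whatever raised them, so the comparison does not single out p53-family targets. Cdkn1a came at 0.59, below 9 other listed targets. Those were Ckap2 at 0.95, a spindle protein, Dcxr and Phlda3 at 0.89, Gtse1 at 0.88, Sesn2 at 0.85, Trp53inp1 at 0.83, Mdm2 at 0.82, Ccng1 at 0.76 and Perp at 0.71. Bax, the pro-apoptotic pore protein, was at -0.21 and Tigar, a regulator of glycolysis, at -0.39. In group CPM, 29 of the 35 listed targets that passed the minimum were higher after the drug, as were 5677 of all 11119 genes. The median log2 ratio was 1.14 for the targets, against 0.01 over all genes. Targets under 5 CPM in control oocytes, such as Eda2r at 0.31 and Psrc1 at 0.68, passed only through the treated group. Such genes could only read higher, which raises both the count and the median.

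For each gene the 3 most alike among 7305 genes, by Spearman rho over the 16 doxorubicin oocytes, included each other and further listed targets. Ifitm10 and Prickle3 were each nearest to the other at 0.94, and Ckap2 was among the nearest for Ifitm10, Prickle3 and S100a16 at 0.91, 0.93 and 0.89. Fermt3 was nearest to Lctl and 1700007K13Rik, both at 0.93, and to Cd151, a tetraspanin, at 0.91. D630023F18Rik had Tmem8 at 0.91 and Gtse1 at 0.90 among its nearest. S100a16 had 1700007K13Rik first at 0.92, and the remaining places went to Fermt3, at 0.89 for S100a16, to Kcnh3, at 0.92 for Ifitm10, and to Galnt6, at 0.92 for Prickle3.

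The paralogs that passed the minimum mostly did not share the pattern, with a clear exception among the kindlins. Fermt1, which encodes kindlin-1, the kindlin of epithelia, had 10 reads over all control oocytes and 10746 over doxorubicin oocytes. In the treated cells it spanned 0, 24.7 and 290 CPM for the lowest, median and highest cell. Its group CPM was 0.051 and 60.1, or 10.20 (9.32 to 11.26) on the log2 scale. Leaving out control oocyte 2 gave 11.85 and leaving out doxorubicin oocyte 4 gave 9.69, and the gene passed the minimum only through the treated group. Fermt1 exceeded its control maximum of 0.58 CPM in 11 cells, which included all 10 cells with at least 4 of the 5 genes above theirs, and cell 15 at 2.23 CPM. Fermt2, the widely expressed kindlin-2, went from 78.3 to 59.1 CPM, a log2 ratio of -0.41.

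The integrins that kindlins bind showed no shared direction. Of 28 listed integrin and talin genes, 11 had at least 5 CPM in either oocyte group. The median log2 ratio of the 11 was -0.07. Of them 5 were higher after the drug, as were 5677 of all 11119 genes. Itga1, Itga3 and Itgb2 passed the minimum only through the treated group and so could only read higher. Itgb2, the beta subunit of leukocyte integrins, had 1 read over the control oocytes and 3614 over the treated ones, at 20.2 CPM, all of it in 4 cells, with a highest level of 137 CPM in cell 4. Itga3 had a log2 ratio of 2.02. Since Fermt3 and Itgb2 mark blood cells, the blood and immune list is given beside them. Of its 21 genes 13 had a row, their sum was 0, 2.42 and 23.96 CPM over control oocytes and 0, 16.5 and 192 CPM over doxorubicin oocytes, and 4 were under 3 counts in the treated group. Cd52, Lyz2, C1qa and Hba-a2 had no read in doxorubicin oocytes, and Ptprc, the pan-leukocyte CD45 gene, went from 0 to 0.185 CPM. Other listed genes were higher after the drug. The haemoglobin genes Hba-a1 and Hbb-bs went from 0.99 to 7.67 and from 0.86 to 4.42 CPM, Laptm5 went from 0 to 0.99 CPM, and Csf1r reached 47.9 CPM in cell 4. Fermt3 had a rho of 0.19 with the blood and immune sum across the treated oocytes, and the part of blood cell RNA in its level was not tested further.

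Among relatives of Ifitm10, Ifitm3 went from 8.32 to 40.2 CPM, a log2 ratio of 2.27, and 6 of the 16 treated oocytes were above its control maximum. Ifitm2 and Ifitm1 had log2 ratios of 0.51 and -0.25. Interferon-stimulated genes showed no shared direction: of 20 listed genes 5 passed the minimum, 2 were higher, and the median log2 ratio was -0.03. The pair that read higher were Bst2, or tetherin, at 2.78 and Oasl2 at 4.83. Both passed the minimum only through the treated group and so could only read higher. Those that read lower included Stat2 at -0.62 and the chemokine Cxcl10 at -3.05. Of 17 S100 genes 3 passed the minimum, and besides S100a16 these were S100a10 at 1.36 and S100a11 at 0.66. Below the minimum, S100a2, S100a3 and S100a4 had no read in control oocytes and 321, 148 and 25 reads in treated ones. S100a1 and S100a13 went the other way, from 298 to 196 and from 111 to 28 reads. Prickle1 and Prickle2 had log2 ratios of -0.71 and -0.27. The planar cell polarity core, 16 listed genes of which 12 passed the minimum, had a median of -0.32 with 4 higher. Among those 4 were the cadherin Celsr2 at 2.43 and the receptor Fzd6 at 2.17. Celsr2 and Fzd6 likewise passed only through the treated group. Vangl1 was at -2.04. Over all genes 5677 of 11119 were higher.

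Genes next to the 5 stayed close to 0 on the log2 scale where they were expressed in oocytes. Trpt1, which overlaps Fermt3 by 89 bases on the opposite strand, had a log2 ratio of 0.13, and Nudt22 and Stip1 on either side had -0.24 and -0.06. Ctsd, beside Ifitm10, had -0.17, and Idh1, beside D630023F18Rik, had 0.47. Plp2, which overlaps Prickle3 by 246 bases on the opposite strand, had 0.44. Whether the counting used strand is not given in the sources used here, so reads in those overlaps cannot be assigned to either gene with certainty. Gm28845 overlaps 14274 bases of D630023F18Rik on the same strand and was not analysed here. The other flanking genes were under 5 CPM in both oocyte groups.

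**Figure D4:**
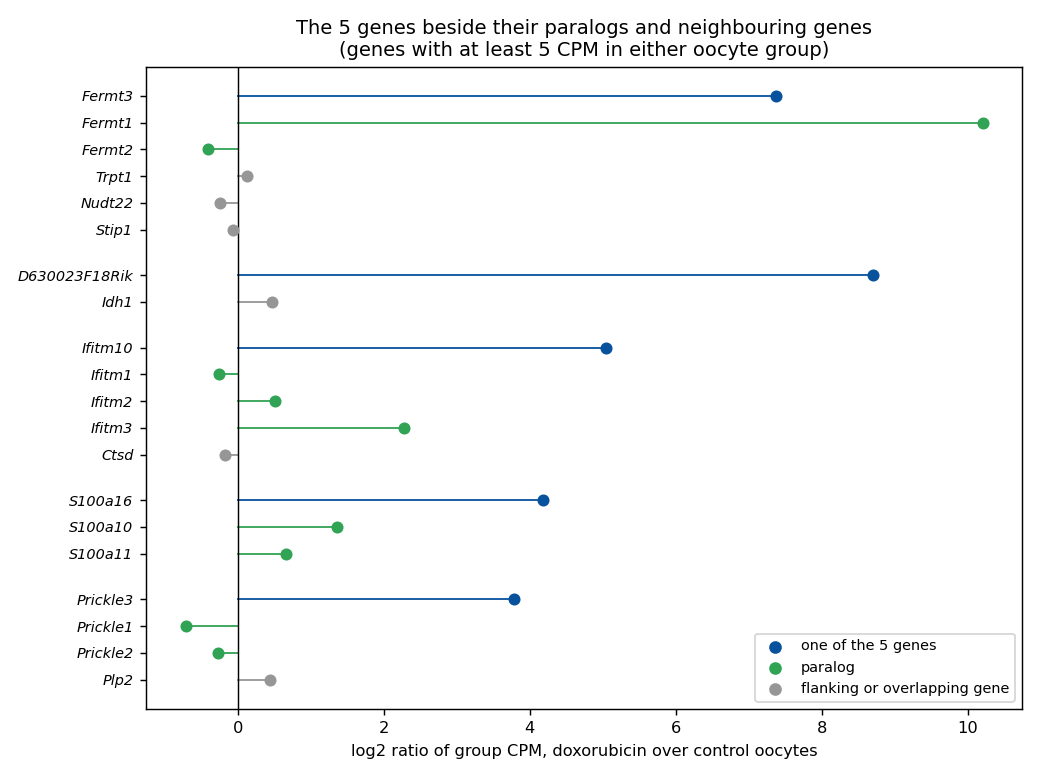
Log2 ratio of group CPM, doxorubicin over control oocytes (horizontal), for the 5 genes (blue), their paralogs (green) and flanking or overlapping genes (grey) with at least 5 CPM in either oocyte group. Fermt1 at 10.20 stands beside Fermt3 at 7.37, Ifitm3 at 2.27 is the only other paralog past 2, and the grey points lie between -0.24 and 0.47.

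In granulosa libraries, a contrast that the choice of genes did not use, the 5 genes parted. Fermt3, Ifitm10 and D630023F18Rik, at 8, 2 and 4 reads over all 16 control granulosa libraries, had 12464, 9738 and 1383 reads over the 13 treated ones. Ratios past 8-fold were found for 7.15% of 12194 granulosa genes, and past 8-fold in both cell types for 0.219% of 10045 genes. Prickle3 and S100a16 were already present in some controls. A 2-fold higher group CPM was found for 20.6% of the granulosa genes, so group differences of that size are common between these libraries. Those 3 genes passed the minimum of 5 CPM only through the treated group, so their ratios had to be large. There were 87 genes at least 8-fold higher in oocytes and under 1 CPM in control granulosa libraries. Of these, 19.5% reached 5 CPM in the treated granulosa libraries, against 6.25% of all 10623 rows under 1 CPM in those controls. The 87 genes all reached 5 CPM in doxorubicin oocytes, which was not asked of the 10623 rows. Oocyte markers were also higher in treated granulosa libraries, at a median of 4475 against 897 CPM. The part of oocyte RNA in the difference between these shares was not tested.

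Fermt3 reached at least 5 reads in 3 of 13 doxorubicin granulosa libraries and in none of 16 controls. Those were libraries 2, 6 and 9, at 113, 290 and 683 CPM, and the other 10 were at or near 0. The same 3 had the highest Cdkn1a of the group, at 2837, 2077 and 4606 CPM, while library 8, next at 1178 CPM, had 0.076 CPM of Fermt3. Group CPM of 87.1 over 0.044 made 10.94 (9.96 to 12.15) on the log2 scale, and 9.55 without library 9. Blood and immune markers were also higher in these libraries, with a median sum of 8.30 CPM in controls and 54.2 CPM after the drug. The 4 listed blood genes past the minimum were all haemoglobin genes and were higher, at a median log2 ratio of 6.26. Over all granulosa genes 5959 of 12194 were higher. Hba-a2 and Hbb-bt passed only through the treated group. Other listed blood genes were lower or near absent: Ptprc, Laptm5 and Itgb2 had no read after the drug. Itga2b went from 2.47 to 0.007 CPM, and Csf1r went from 0 to 1.34 CPM. Libraries 2, 6 and 9 held 31.05, 213 and 52.99 CPM of blood and immune markers, while library 15, with 34796 CPM of them, had 0.10 CPM of Fermt3.

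Ifitm10 was the broadest, with at least 5 reads in 7 of 13 treated libraries and in none of 16 controls. Libraries 2, 4, 6, 7, 8 and 9 held 118, 196, 180, 103, 71.2 and 169 CPM, and library 1 held 0.93 CPM. It was also present at low Cdkn1a: library 4 had 0.58 CPM of Cdkn1a, the lowest of the group, and rho between the genes was 0.24 over the 13 libraries. Library 4 went against its label, however, with 14901 CPM of oocyte markers against 2129 CPM of granulosa markers. The ratio of 9738 to 2 reads was 12.58 (10.73 to 15.63) on the log2 scale of CPM, or 11.99 with the control sum set to 3 counts.

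Of the 13 libraries D630023F18Rik was found at 5 reads or more in 1 and 10, at 101 and 44.0 CPM, with 2 reads or fewer in the rest. Group CPM of 9.67 over 0.022 made 8.76 (7.40 to 10.64) on the log2 scale, and 7.10 without library 1. Neither library had Fermt3 above 0.31 CPM. The pairing of Fermt3 with D630023F18Rik seen in oocytes was thus not repeated in these libraries. Both went against their label, with 27134 CPM of oocyte against 1598 CPM of granulosa markers in library 1, and 9405 against 2094 in library 10. In the 7 treated libraries with more granulosa than oocyte markers, D630023F18Rik had 4 reads, too few to judge the pairing. Libraries 2, 6 and 9, which held Fermt3, did hold Ifitm10, at 118, 180 and 169 CPM.

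Oocyte transcripts were present in these libraries, so each gene was also set against them. In CPM per 1000 CPM of oocyte markers, the highest doxorubicin oocyte had 33.3 for Fermt3, 25.9 for Ifitm10 and 16.3 for D630023F18Rik. Granulosa library 9 had 153 for Fermt3 and 37.8 for Ifitm10, and library 2 had 32.5 and 34.03, so Ifitm10 in both and Fermt3 in library 9 exceeded every doxorubicin oocyte. Fermt3 in library 6 had 15.2, and D630023F18Rik in libraries 1 and 10 had 3.73 and 4.67, within the range of the oocytes. Over the 13 libraries, rho between Ifitm10 and the oocyte markers was 0.58. What part oocyte RNA had in these levels was not tested beyond that. In the 7 treated and 12 control libraries with more granulosa than oocyte markers, the log2 ratio was 10.91 for Ifitm10. It was 8.44 for Fermt3, where library 2 held nearly all reads, and 1.19 for D630023F18Rik, from 4 treated and 3 control reads. It was 0.56 for Prickle3, -0.78 for S100a16 and 5.68 for Cdkn1a.

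Prickle3 in granulosa libraries had at least 5 reads in 4 of 16 controls and 5 of 13 treated libraries, with a highest level of 121 and 259 CPM and a median of 0 and 0.10 CPM. Its log2 ratio of 1.16 (1.09 to 1.22) was 0.18 without doxorubicin library 9 and 2.03 without control library 7, so it rested on single libraries. S100a16 was at 0, 8.31 and 186 CPM for the lowest, median and highest control and at 0, 0.31 and 213 CPM in the treated group. Its log2 ratio was -0.62 (-0.67 to -0.57), between -1.27 without doxorubicin library 6 and -0.37 without control library 10. Cdkn1a went from 13.5 to 1161 CPM in the same libraries, a log2 ratio of 6.42.

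No granulosa library of either group held at least 5 reads of more than 3 of the 5 genes. In treated libraries, 3 genes were found together in 3, 2 genes in 5, 1 gene in 3 and none in 2. In the 7 treated libraries with more granulosa than oocyte markers these numbers were 1, 4, 1 and 1. Among doxorubicin oocytes all 5 were found at that depth in 10 cells, and no control oocyte had all 5. Between cell types, control oocytes stood above control granulosa libraries by 8.64 on the log2 scale for Ifitm10, 5.04 for Fermt3 and 2.97 for D630023F18Rik, close to them for Prickle3 at -0.54 and below them for S100a16 at -4.14. The ratio of D630023F18Rik rested on control oocyte 9: without it, 0 oocyte reads stood against 4 in granulosa libraries. Of the 287 Fermt3 reads 228 were in control oocyte 16, without which its ratio was 3.01. After the drug, oocytes were above granulosa libraries for all 5, by 2.90 for D630023F18Rik, 2.09 for Prickle3, 1.69 for Ifitm10, 1.48 for Fermt3 and 0.67 for S100a16. Cdkn1a lay the other way, at -3.15. With the 7 treated libraries richer in granulosa markers, these ratios were 10.49 for D630023F18Rik, which then had 4 granulosa reads, 2.34 for Prickle3, 2.38 for Ifitm10, 3.99 for Fermt3, 0.59 for S100a16 and -2.80 for Cdkn1a.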

How the data were processed

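Each library was 1 cell, made with a low-input full-length cDNA kit per the labels' protocols. The authors deposited estimated counts, with genes in rows and cells in columns (34.05% of nonzero values not whole). The submitters' processing notes name Partek, Bowtie2, HISAT2, DESeq2 and mm10, with no role or version, and strand handling is not given in the sources used here. Counts were rounded, all 61 columns were matched by name, and 22 rows with date-like names (0.186% of counts) stayed in totals and were never named. The values are log2 ratios of summed-count CPM, with sums under 3 counts set to 3. Ratio intervals are exact conditional binomial intervals, and PCR reads are not independent molecules. No test was possible with 1 sample per group. Genes in comparisons needed 5 CPM in either group, and 20 CPM for rank correlations. The 5 genes, the lists and the naming rules (the 5 genes, Cdkn1a, paralogs, list members, flanking genes, genes of like pattern and the 3 most alike) were chosen with earlier results of these data known. Of the most alike and the listed genes, 2 are not reported here. Itgb2, the p53-family targets and the list members with values were named after their values were seen. The closest pair of cells in a group, control oocytes 2 and 6, differed by a chi-square of 56.7 for each degree of freedom, so no library was a copy. The calculation was tested on simulated data. Python 3.11.15, pandas 2.3.3 and scipy 1.17.1 were used, with edgeR 4.0.16 and DESeq2 1.42.0 scaling factors as alternatives.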

Additional observations from a re-analysis of the deposited data

Results flagged for a closer look

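S100a16 had a log2 ratio of 4.18 in oocytes and -0.62 in granulosa libraries, opposite directions after the same drug; the difference was not tested. Opposite signs were also seen for Ifitm2, at 0.51 in oocytes and -0.67 in granulosa libraries, for S100a10, at 1.36 and -0.21, and for Prickle2, at -0.27 and 1.66, and these differences were not tested either.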

How the results depend on the processing

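The genes were chosen for being higher in treated oocytes, so the direction there was set by the choice. The median log2 ratio of the 5 genes stayed positive under every alternative run. In oocytes it was 5.05, and it was 4.87 with the mean of the cells' CPM, 4.28 with the difference of their median log2(CPM + 1), 4.92 in the 12 control and 11 doxorubicin oocytes under 200 CPM of granulosa markers, and 4.68 to 5.21 with 1 cell left out. In granulosa libraries it was 8.76, and 7.10 to 9.11 with 1 library left out, but its size did not hold otherwise. It fell to 0.061 from cell medians and to 1.19 in libraries with more granulosa than oocyte markers. That 1.19 was the ratio of D630023F18Rik, from 4 treated and 3 control reads. The median rho with Cdkn1a was 0.59, 0.48 as Pearson r, and 0.50 to 0.71 with 1 cell left out, lowest without doxorubicin oocyte 5 and highest without doxorubicin oocyte 12. The count of genes at least 8-fold higher in oocytes was 154, against 1794 with no filter on low genes, 49 at 20 CPM or more, and 134 to 167 with 1 cell left out. Doxorubicin oocytes with at least 4 of the 5 genes above every control numbered 10, 6 of the 11 under 200 CPM of granulosa markers, and 9 without doxorubicin oocyte 4; these alternatives were chosen after seeing the data. edgeR and DESeq2 scaling left the median log2 ratios and the count of genes at least 8-fold higher close to their main values. That scaling was not applied to rho or to the number of oocytes with at least 4 genes above every control. Between control oocytes and control granulosa libraries the direction turned for D630023F18Rik without control oocyte 9, to -0.46 with the oocyte sum set to 3 counts (3.22 without control oocyte 16), and for Cdkn1a, from 0.21 to -0.18, in the 12 control libraries with more granulosa than oocyte markers, alternatives added after seeing the data.

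No paired analysis was possible because the labels tie no cell to an animal, and the cell numbers in them only name cells. Where the cause of a shift is not part of the alternative itself, the cause was not tested. At 6834594 counts or more per library, 1 read is worth under 0.2 CPM. Read counts limit the ratios that rest on few control reads, such as Ifitm10 and D630023F18Rik in granulosa libraries, and the absence of named animals limits all of them.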
